A study of Homo sapiens with 9 samples.

Results

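Ac-4-deoxy-GlcNAc is a peracetylated form of the amino sugar N-acetylglucosamine (GlcNAc) that lacks the hydroxyl group at carbon 4 of the ring. The response of SKOV3 cells, an established human ovarian tumour line, to this compound was read from 6 of the 9 arrays of the series, chosen by their titles. On 3 of them was RNA of cells given 50 µM Ac-4-deoxy-GlcNAc and on 3 RNA of untreated cells, and all cells grew for 3 days in McCoy's 5A medium with fetal bovine serum; how much of that time the compound was present is not given in the sources used here. The other 3 arrays held RNA of cells given 50 µM Ac-GlcNAc, the compound that keeps the oxygen at carbon 4. Replicates of Ac-4-deoxy-GlcNAc are called treated replicates below. The 3 arrays of a group are labelled biological replicates of 1 cell line, so the p-values measure the spread between cultures of that line, and no vehicle for the untreated flasks is given in the sources used here. Of 17859 probe sets, the 14413 paired with exactly 1 gene were used, and they covered 14215 genes. The deposited values are log2 signals, so a difference of 1 is a 2-fold change, and the values of different genes cannot be ranked against each other because probes differ in brightness.

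The acetyl groups let a sugar of this kind cross the cell membrane, and esterases in the cell remove them. In heparan sulfate, the sulfated chain that binds growth factors at the cell surface, each GlcNAc is joined to the next sugar through its carbon 4 hydroxyl. GlcNAc is also placed on nuclear and cytosolic proteins by the enzyme OGT and taken off again by OGA, and it begins the oligosaccharide that is attached to proteins in the endoplasmic reticulum.

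Array medians lay between 6.58 and 6.65. The values of untreated replicate 2 were the least spread: their SD was 1.92, the other arrays had 2.07 to 2.18, and its mean correlation with them was 0.987 against 0.990 to 0.994. The labelled cell type was checked on its markers: mean log2 values in untreated and treated cells were 11.19 and 11.10 for the keratin KRT8, 10.63 and 10.77 for PAX8, a transcription factor of Müllerian epithelium, and 11.54 and 11.72 for vimentin (VIM). Of the fibroblast, leukocyte and endothelial markers, THY1, FAP, DCN, PTPRC, CD3E, VWF and CDH5 had group means between 4.02 and 5.01, near or below 4.95, the upper bound of the dimmest quartile of probe sets. Exceptions were the macrophage and lysosome marker CD68 (9.36 and 8.99) and lumican (LUM, 7.18 and 6.72), and PDGFRB, CD14 and PECAM1 had means between 5.20 and 5.76. The part of these markers in the results was not tested.

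With Ac-4-deoxy-GlcNAc, 1593 of 14413 probe sets (11.1%) differed from untreated cells at an adjusted p under 0.05 and are named called below. Of these, 774 were higher (5.37% of those tested) and 819 lower (5.68%), and the median log2 difference over all was -0.05. The counts of every gene list below are to be read against these shares. Leaving out untreated replicate 1 gave 2501 calls, untreated replicate 2 gave 794, treated replicate 1 gave 701 and treated replicate 3 gave 484. A narrower set was therefore used to name genes: 420 probe sets (2.91%), 193 higher (1.34%) and 227 lower (1.57%), were called, had treated and untreated arrays that did not overlap, and stayed called in each of the 6 fits that left out 1 of the 6 arrays. These 420 are named stable, and a called gene that is not stable was lost without at least 1 array or had overlapping arrays. The arrays did not overlap on 32.4% of all 14413 probe sets. Most changes were small: the median fold of the stable probe sets was 1.54, and 12 of them rose and 15 fell by at least 2-fold.

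The direction of the calls went with the level of the probe set. In the dimmest quartile of probe sets, below a mean log2 value of 4.95, 8 were called higher and 241 lower, and the median difference was -0.19. In the brightest quartile, above 8.52, 311 were higher and 114 lower, and the median difference was 0.06. Untreated replicate 2 moved with this pattern, with a median deviation from the 9-array mean of 0.33 in the dimmest quartile and -0.15 in the brightest. Untreated replicate 1 had 0.04 and -0.02. Treated replicate 3 also moved with it, from the other side, at -0.13 and 0.06. Treated replicate 1, at 0.000826 and -0.04, did not. Without untreated replicate 2 and treated replicate 1 together, the dimmest quartile had 6 higher and 53 lower and the brightest 85 and 56. With cyclic loess, which removes such shifts between arrays, the counts were 76 and 108 in the dimmest quartile and 283 and 268 in the brightest. Over all probe sets, 48.6% of the calls were higher in the values as deposited, 66.7% above the median level, and 38.0% with array SD in the model.

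**Figure D1:**
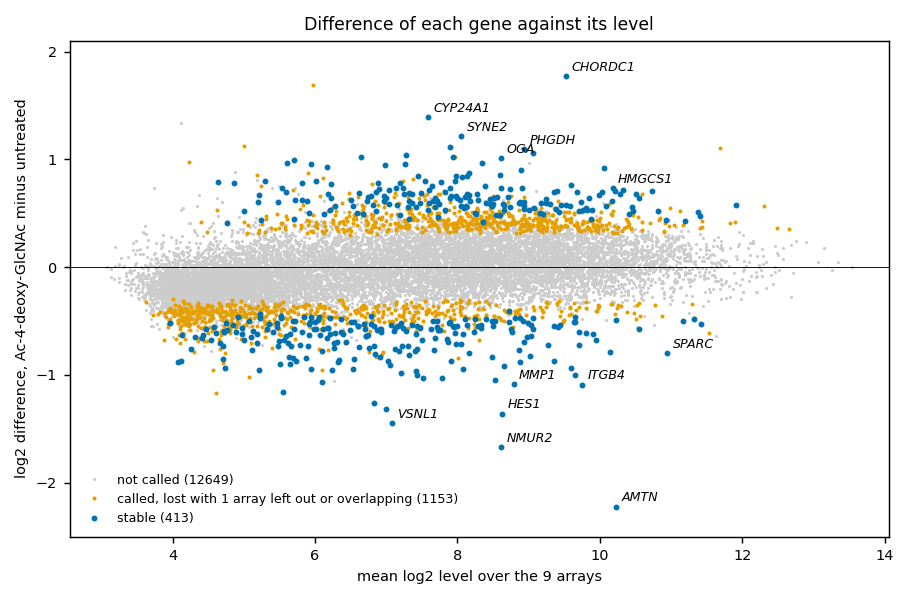
Log2 difference of Ac-4-deoxy-GlcNAc minus untreated cells (vertical axis) against the mean log2 level over the 9 arrays (horizontal axis), 1 point per gene. Blue points are the 413 stable genes, orange points the 1153 other called genes and grey points the 12649 genes not called; at the left end nearly all orange points lie below 0, while stable points lie on both sides over the rest of the range.

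AMTN, which encodes amelotin, a secreted protein of the tooth enamel surface, had the largest fall among stable genes. Its log2 values were 11.04, 11.28 and 11.40 on the untreated arrays and 8.82, 9.05 and 9.17 on the treated ones, a log2 difference of -2.22 (SE 0.12, adjusted p = 6.14e-07). The gap between the groups was larger than the whole range within either. The receptor for the peptide neuromedin U, NMUR2, stood at 9.27, 9.49 and 9.42 without the compound and at 7.76, 7.72 and 7.68 with it, a 3.18-fold fall (SE 0.10 on the log2 scale, adjusted p = 1.92e-06). Its ligand NMU did not pass the test (log2 difference 0.05, SE 0.09, adjusted p = 0.766).

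VSNL1, the neuronal calcium sensor visinin-like 1, went from 7.64, 7.81 and 7.67 to 6.17, 6.47 and 6.14. FOXS1, a forkhead transcription factor, went from 7.52, 7.66 and 7.52 to 6.11, 6.20 and 6.43. VSNL1 was 2.73-fold and FOXS1 2.497-fold lower, and on neither did the groups come near each other. The noncoding transcript C2orf74-DT had 7.29, 7.16 and 7.35 in untreated and 5.93, 6.0 and 6.09 in treated cells (log2 difference -1.26, SE 0.10, adjusted p = 2.12e-05). STK32A, a serine/threonine kinase, fell by 1.06 (SE 0.16) and GTF2H5, the smallest subunit of transcription factor TFIIH, by 1.05 (SE 0.17); untreated replicate 3 of GTF2H5, at 9.35, lay apart from the other untreated values of 8.71 and 8.74. NREP, a small neuronal protein, and the adhesion protein MPZL2 each fell by 1.0 (SE 0.12 and 0.13). In the RefSeq annotation FOXS1 overlaps DUSP15, STK32A overlaps DPYSL3 and ITGB4 overlaps GALK1, so signal of these pairs may not be separable.

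Among the 15 largest falls, the values of OR1E1, an olfactory receptor gene, and HNRNPM, an RNA-binding splicing protein, were the most scattered. OR1E1 had 6.30, 6.66 and 5.75 against 5.05, 4.92 and 5.27, and HNRNPM had 7.64, 8.57 and 8.08 against 7.43, 6.81 and 6.96. On HNRNPM the lowest untreated and the highest treated array were close. Both symbols also stand on probe sets that name several genes, and both calls were lost with array SD in the model. Of 207 measured olfactory receptor genes, a group with little expression outside the nose, 2 were called higher and 14 lower, 1 of them stable. The shares over all probe sets were 5.37% and 5.68%, and the list median was -0.17. The lower count was 3 without untreated replicate 2 and 22 without untreated replicate 3. It was 7, 8 and 2 without treated replicate 1, 2 and 3. Taste receptors, also taken as genes near background, had a median above 0, at 0.13. Of 21 measured, 3 were called higher, 1 of them stable, and 1 lower (against 5.37% and 5.68% of all probe sets). The higher count was 1 without treated replicate 1 or 3 and 6 without treated replicate 2. Their mean was 5.13 on treated replicate 1, 4.38 and 4.46 on the other treated arrays, and 4.35, 4.63 and 4.30 on the untreated ones.

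CHORDC1, a co-chaperone of HSP90 that is induced by heat shock, had the largest rise among stable genes, 1.77 on the log2 scale (SE 0.26, adjusted p = 0.00167). Its untreated values were 8.92, 7.67 and 8.86 and its treated values 10.59, 9.97 and 10.21. Untreated replicate 2 lay more than 1 log2 unit below the other untreated arrays, the groups did not overlap, and the symbol is also on a probe set of several genes. The remaining 16 measured heat shock genes had no call, but without untreated replicate 1 the list had 3 genes called higher. HSPE1, the mitochondrial co-chaperonin, came nearest in size with a difference of 0.57.

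CYP24A1, the enzyme that breaks down vitamin D, rose from 7.19, 6.85 and 6.87 to 8.39, 8.21 and 8.49 (log2 difference 1.39, SE 0.12, adjusted p = 6.03e-05). VDR, the vitamin D receptor, was 0.45 lower (SE 0.10, adjusted p = 0.0129), with values of 6.37, 6.29 and 6.20 against 5.73, 5.93 and 5.87, but was not called without treated replicate 1 (adjusted p = 0.0543; 0.0181 to 0.0441 without each other compared array). Of 11 measured genes of the vitamin D pathway, 2 were called higher and 2 lower (against 5.37% and 5.68% of all probe sets). The other rise was DHCR7, which the list shares with cholesterol synthesis. The other fall was CYP2R1 (-0.44), a vitamin D 25-hydroxylase that stayed called in 2 of the 6 fits without 1 array. The lower count was 0 without treated replicate 1 and 1 without treated replicate 3 or untreated replicate 1.

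LRRN4, a leucine-rich repeat membrane protein, rose from 7.60, 7.51 and 7.48 to 8.53, 8.63 and 8.77. TENM1, a teneurin, rose from 8.80, 8.48 and 8.76 to 9.90, 9.55 and 9.76, and the kinase gene ALPK2 from 6.97, 6.59 and 6.92 to 8.01, 7.71 and 7.88. On these 3 genes the groups lay far apart, with adjusted p values of 0.000177, 0.000345 and 0.000399. SLC27A2, a transporter and ligase of very long chain fatty acids, rose by 0.96 (SE 0.10, adjusted p = 0.000291).

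On 11 of the 15 largest rises treated replicate 2 was the lowest of the treated arrays. SYNE2, the nuclear envelope protein nesprin 2, had treated values of 9.16, 8.46 and 8.79 against 7.70, 7.43 and 7.62. DGKH, a diacylglycerol kinase, had 9.31, 8.55 and 8.86 against 8.11, 7.78 and 7.93, and EID3 7.0, 6.02 and 6.43 against 5.78, 5.48 and 5.32. IGFN1, RSKR, C10orf12 and ITGB1BP2 also had their lowest treated value on replicate 2, with rises of 1.02, 1.02, 0.97 and 0.99. Treated replicate 1 was the highest on SYNE2, DGKH, EID3, IGFN1, RSKR and C10orf12, and treated replicate 3 on ITGB1BP2. Mean correlation with the other arrays was 0.990, 0.994 and 0.992 for treated replicates 1, 2 and 3. Which array departed from the others on these genes was not tested. All of these genes were stable, but the spread among treated arrays was wide on some. The SD was 0.35 for SYNE2 and 0.49 for EID3, against 0.06 for PHGDH. EID3 was not called with array SD in the model. It lies inside TXNRD1 in the RefSeq annotation, and TXNRD1 also rose.

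**Figure D2:**
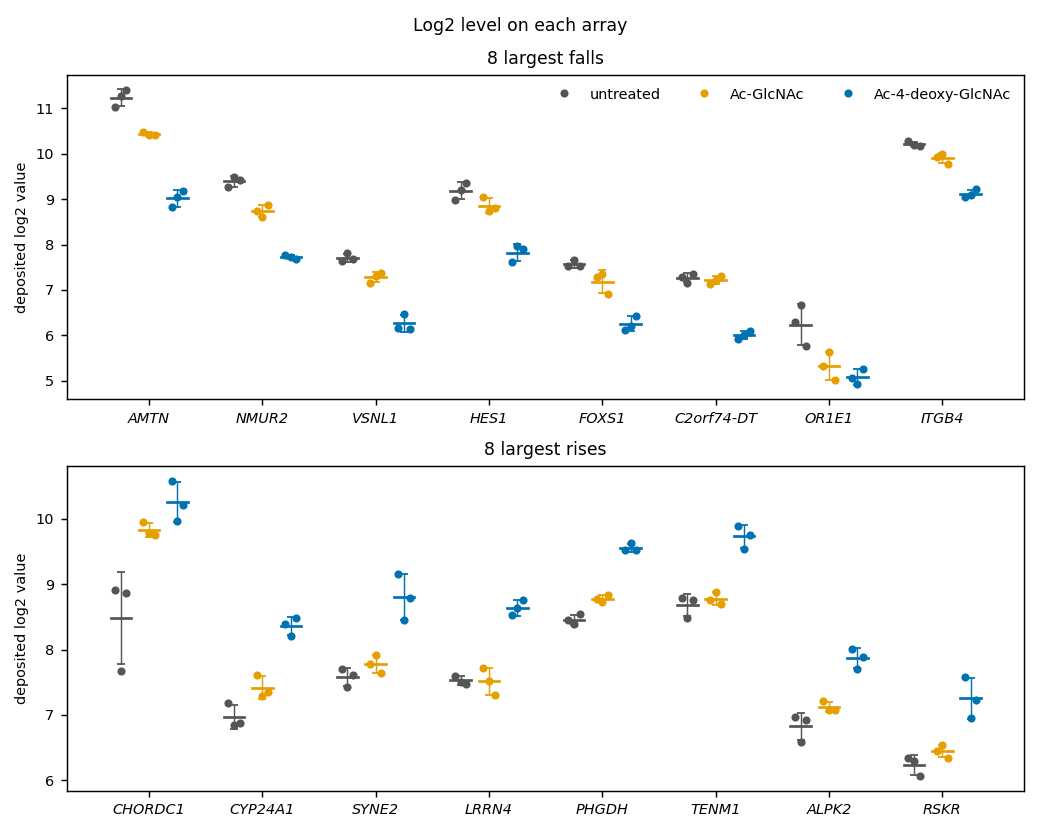
Deposited log2 value on each array (vertical axis) for the genes with the 8 largest falls and the 8 largest rises among stable genes, in untreated (grey), Ac-GlcNAc (orange) and Ac-4-deoxy-GlcNAc (blue) cells. Points are arrays, horizontal bars group means and error bars SDs (n = 3); for AMTN and NMUR2 the orange points lie between the other groups, while for C2orf74-DT, LRRN4 and TENM1 they lie with the untreated points.

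Both enzymes of O-GlcNAc cycling were higher. OGA, which removes the sugar, had 8.41, 7.88 and 8.10 without and 8.96, 9.08 and 9.37 with the compound, and OGT, which adds it, had 9.37, 9.20 and 9.20 against 9.93, 9.75 and 9.81. EOGT, the enzyme for secreted proteins, differed by 0.06 and was not called. In the hexosamine pathway, which makes UDP-GlcNAc, and in sialic acid synthesis and nucleotide sugar transport, 3 of 20 measured genes were called higher and 2 lower (against 5.37% and 5.68% of all probe sets). NAGK, the kinase that phosphorylates free GlcNAc, fell from 9.85, 9.73 and 9.96 to 9.21, 9.44 and 9.37 (log2 difference -0.51, SE 0.10, adjusted p = 0.00746), and it was stable. GNE, the entry enzyme of sialic acid synthesis, rose by 0.44 (SE 0.09) and was stable in the values as deposited, but its call was lost with array SD in the model and without untreated replicate 2 and treated replicate 1 together. GFPT1, the rate-limiting enzyme of the pathway, differed by -0.03 (SE 0.10). The higher count of this list was 1 without untreated replicate 2 or 3 and without treated replicate 1 or 3, and the lower count was 1 without each of these and without treated replicate 2.

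Of 25 measured genes of heparan sulfate synthesis, 0 were higher and 2 lower (against 5.37% and 5.68% of all probe sets). The list median was -0.11 against -0.05 over all probe sets. The lower count was 1 without untreated replicate 3 and without treated replicate 1, 2 or 3. EXTL2, an exostosin-like GlcNAc transferase that acts on the linkage region of the chain, fell from 7.76, 7.76 and 7.86 to 6.64, 7.23 and 7.19 (log2 difference -0.78, SE 0.15, adjusted p = 0.00748) and was the only stable member. B3GALT6, a linkage region galactosyltransferase, was called at -0.38 but not stable. The chain polymerase EXT1 did not pass (0.28, SE 0.09, adjusted p = 0.0637), nor did the N-sulfating enzyme NDST1 (-0.02, SE 0.09, adjusted p = 0.867). Among 21 proteoglycan core proteins 2 were higher and 2 lower (against 5.37% and 5.68% of all probe sets). These counts were 2 and 4 without untreated replicate 1, 1 and 2 without untreated replicate 2, 0 and 1 without untreated replicate 3 or treated replicate 1, 2 and 1 without treated replicate 2 and 0 and 2 without treated replicate 3. Biglycan (BGN), a small leucine-rich proteoglycan of the matrix, fell from 6.45, 6.78 and 6.61 to 6.0, 6.06 and 5.94 and was the stable one; the syndecan SDC4 differed by -0.04 (SE 0.11). Of 26 genes of N-glycan assembly and transfer, 3 were called higher and 0 lower (against 5.37% and 5.68% of all probe sets), and none was stable. The higher count was 0 without untreated replicate 2 or treated replicate 3, and 1 without untreated replicate 3 or treated replicate 1.

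Most measured genes of cholesterol synthesis rose. Of 14, 9 were called higher (against 5.37% of all probe sets), 7 of these stable, and 0 lower, with a list median of 0.52; the count was 7 to 9 in the 6 fits without 1 array and 8 without untreated replicate 2 and treated replicate 1 together. HMGCS1, an early enzyme of the pathway, had 9.88, 9.98 and 10.11 in untreated and 10.78, 10.68 and 10.70 in treated cells (log2 difference 0.73, SE 0.09, adjusted p = 0.000863). LSS, which closes the sterol rings, had 9.11, 8.90 and 9.03 against 9.63, 9.63 and 9.68, and the last enzyme, DHCR7, had 9.88, 9.54 and 9.91 against 10.32, 10.53 and 10.56. On all 3 the lowest treated array lay above the highest untreated one. The mevalonate kinase MVK rose by 0.69 (SE 0.13), the demethylation enzymes NSDHL and MSMO1 by 0.58 each, and the isomerase IDI1 by 0.56 (SE 0.09). MVK and NSDHL were not called with array SD in the model, and MVK overlaps MMAB. Members without a call ranged from EBP at -0.32 to TM7SF2 at 0.25.

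Of 13 regulators and carriers of sterols, 3 were higher and 2 lower (against 5.37% and 5.68% of all probe sets), and the lower count was 1 without untreated replicate 2 or 3 and without treated replicate 1 or 3. INSIG1, which holds the SREBP transcription factors in the endoplasmic reticulum when sterols are plentiful, rose from 7.29, 7.24 and 7.62 to 8.13, 8.22 and 7.93 (log2 difference 0.71, SE 0.12, adjusted p = 0.00323). MYLIP, a ubiquitin ligase induced when sterols are plentiful, fell from 7.44, 7.50 and 7.76 to 6.76, 6.91 and 6.82 (-0.74, SE 0.11, adjusted p = 0.0019). NPC1, the lysosomal cholesterol exporter, rose by 0.49 (SE 0.09); its symbol is also on a probe set of several genes. SREBF1, the gene of SREBP-1, had a difference of 0.10 (SE 0.10, adjusted p = 0.499). SREBF2 was present only on a probe set of several genes.

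Of 14 genes that make or desaturate fatty acids, 5 were higher, 3 of them stable, and 0 lower, with a median of 0.32. The desaturase SCD rose from 10.47, 10.30 and 10.58 to 11.14, 11.21 and 11.12 (log2 difference 0.71, SE 0.10, adjusted p = 0.00129). ACSS2, which makes acetyl-CoA from acetate, rose by 0.62 (SE 0.10) and ACACB, an acetyl-CoA carboxylase, by 0.58 (SE 0.11). The synthase FASN was called at 0.38 but in only 2 of the 6 fits without 1 array. The list count was 3 without treated replicate 1 or 3.

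PHGDH, the first enzyme of serine synthesis, had the clearest rise among amino acid genes: it was at 8.45, 8.39 and 8.54 in untreated and at 9.52, 9.63 and 9.52 in treated cells (adjusted p = 3.37e-05). PSAT1, the next enzyme, rose from 9.94, 9.54 and 9.89 to 10.39, 10.52 and 10.59, and CBS, which joins serine to homocysteine, from 7.57, 7.46 and 7.60 to 8.26, 8.41 and 8.50. In all, 5 of 14 genes of serine and one-carbon metabolism were higher, these 3 stable, and 0 were lower; the count was 3 without treated replicate 3. The other called members were SHMT1 (0.66) and MTHFD2 (0.37), which move one-carbon units.

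Of 18 amino acid transporters, 7 were higher, 4 of them stable, and 0 lower (5 to 7 higher without 1 array). SLC1A5, a carrier of glutamine and other neutral amino acids, rose from 9.63, 9.45 and 9.47 to 10.05, 10.09 and 10.33 (log2 difference 0.64, SE 0.10, adjusted p = 0.00316). SLC7A2, a carrier of cationic amino acids, rose by 0.59 (SE 0.13), and the glutamine carriers SLC38A1 and SLC38A2 by 0.48 and 0.43 (SE 0.10 and 0.09). The last 2 were not called without untreated replicate 2 and treated replicate 1 together, and SLC38A1 was not called with array SD in the model. Among 17 cytosolic aminoacyl-tRNA synthetases, which load tRNAs with amino acids, 3 were higher: WARS1 rose from 9.31, 9.21 and 9.21 to 9.78, 10.03 and 10.21, CARS1 by 0.59 (SE 0.11; not called with array SD in the model), and IARS1 was called at 0.46 without being stable. The list median was 0.04, and limma's test called 0 of 12 mitochondrial synthetases, of which 3 had an unadjusted p under 0.05.

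ATF4 is the transcription factor that turns on many of these genes when amino acids run short or the endoplasmic reticulum is under stress. Its own values were 9.88, 9.44 and 9.24 against 9.75, 9.60 and 9.85; the groups overlapped (log2 difference 0.21, SE 0.14, adjusted p = 0.296). Of 21 regulators of the pathway, 3 were higher and 0 lower (against 5.37% and 5.68% of all probe sets). The higher count was 6 without untreated replicate 1, and 2 without untreated replicate 2 or 3 and without treated replicate 2 or 3. PCK2, the mitochondrial phosphoenolpyruvate carboxykinase, rose from 6.59, 6.31 and 6.42 to 7.06, 7.03 and 7.18, and TRIB3, a pseudokinase, from 6.98, 7.06 and 7.03 to 7.52, 7.56 and 7.67. DDIT3, a stress transcription factor downstream of ATF4, did not pass (0.42, SE 0.14, adjusted p = 0.0611).

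The unfolded protein response is the program by which cells add chaperones and degradation factors to the endoplasmic reticulum. Of 30 measured members, 10 were higher, 7 of them stable, and 1 was lower and stable, with a median of 0.22; the higher count was 7 to 12 without 1 array and 8 without untreated replicate 2 and treated replicate 1 together. Among the chaperones, DNAJC3 rose from 7.69, 7.25 and 7.76 to 8.36, 8.22 and 8.51, and HYOU1 from 9.79, 9.63 and 9.72 to 10.28, 10.29 and 10.57. HSPA5, the main chaperone, was at 10.86, 10.51 and 10.70 against 11.16, 11.12 and 11.43 (log2 difference 0.55, SE 0.11, adjusted p = 0.0102). It was not called without treated replicate 3 (adjusted p = 0.0544; 0.00775 to 0.0297 without each other compared array), so it is not among the stable genes. The folding enzymes FKBP11 and PDIA4 rose by 0.72 and 0.66 (SE 0.13 each); PDIA4 was not called with array SD in the model. Of the degradation factors, HERPUD1 rose from 10.06, 9.89 and 9.97 to 10.82, 10.56 and 10.68, DERL2 by 0.65 (SE 0.12) and SEL1L by 0.42 (SE 0.09). DNAJB9, a co-chaperone of HSPA5 that is often induced with it, went the other way and fell by 0.63 (SE 0.12). XBP1, a transcription factor of the response, differed by 0.05 (SE 0.10). Of 28 genes of translocation into the endoplasmic reticulum and COPII transport, 1 was called higher and 2 lower, and none was stable.

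Promoter letters were looked up for the stable members of the lists on sterols, amino acids, stress and Notch, of which 34 of 35 had a RefSeq window of 300 bases (250 before to 50 after the start). Motifs were searched on both strands: TGACGTGG, the unfolded protein response element, TGATGNAAN, the composite site for ATF4 with C/EBP proteins, the endoplasmic reticulum stress element, which is CCAAT followed at a fixed spacing by CCACG, TCACNCCAC, the sterol site of SREBP, and GTGGGAA, the site of the Notch partner RBPJ. Over all 35116 windows their shares were 0.729%, 3.61%, 0.0769%, 1.13% and 6.25%. The list counts that follow are over all measured members with a window, called or not. They count each gene once, with a match in any of its windows, while the shares above are per window. A gene with several windows has more room for a match, so the measures are not quite alike. TGATGNAAN was present in 7 of 14 promoters of cytosolic tRNA synthetases, 5 of 15 of amino acid transporters and 4 of 18 of ATF4 pathway regulators. It was in 1 of 13 of serine and one-carbon enzymes and 1 of 28 of the unfolded protein response list. The latter share of 3.57% is near that of all windows. Among the stable members of these lists, in the same order, it was in 1 of 2, 2 of 3, 0 of 2, 0 of 3 and 1 of 8. It was also in the promoter of LFNG, a stable gene of the Notch list that fell. TGACGTGG was present in 2 of 28 promoters of the unfolded protein response list and GTGGGAA in 5 of 18 of the Notch list. The endoplasmic reticulum stress element was present in 6 of 28 promoters of the unfolded protein response list, none of them of a stable member, and TCACNCCAC in 0 of 13 of cholesterol synthesis; an absent match says only that these letters are not in the window. The 250 bases before the start of 3 stable genes with a match are shown as examples, 5′ to 3′ on the gene's strand (RefSeq, GRCh38.p14), with the matching letters in capitals. In HYOU1 the match is TGACGTGG 188 bases before the start, in HERPUD1 it is TGATGCAAC on the opposite strand at 177 bases, which reads as GTTGCATCA below, and in HES1, described next, it is GTGGGAA at 85 bases. The windows are chr11:119057206-119057455 on the minus strand, chr16:56931892-56932141 on the plus strand and chr3:194135898-194136147 on the plus strand.
HYOU1: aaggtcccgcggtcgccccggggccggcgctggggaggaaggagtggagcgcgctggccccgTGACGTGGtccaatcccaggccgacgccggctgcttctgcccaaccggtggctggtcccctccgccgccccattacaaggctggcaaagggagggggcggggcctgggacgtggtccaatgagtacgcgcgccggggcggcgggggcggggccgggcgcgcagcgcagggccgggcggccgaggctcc
HERPUD1: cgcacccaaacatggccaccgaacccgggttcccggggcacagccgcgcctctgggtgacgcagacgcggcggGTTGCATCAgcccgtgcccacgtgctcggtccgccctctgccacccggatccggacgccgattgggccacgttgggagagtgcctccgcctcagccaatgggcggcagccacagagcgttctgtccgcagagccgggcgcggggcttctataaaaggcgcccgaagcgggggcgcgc
HES1: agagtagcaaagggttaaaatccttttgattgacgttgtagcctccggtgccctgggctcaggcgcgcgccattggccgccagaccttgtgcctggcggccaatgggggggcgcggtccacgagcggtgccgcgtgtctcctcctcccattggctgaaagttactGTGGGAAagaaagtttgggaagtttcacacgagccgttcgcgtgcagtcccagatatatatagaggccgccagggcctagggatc

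In the Notch pathway, through which a ligand on 1 cell releases a transcriptional activator in its neighbour, 4 of 21 measured genes were lower, 3 of them stable, and 0 higher (3 to 5 lower without 1 array). HES1, a repressor that is a direct target of the pathway and whose promoter letters are given above, fell from 8.98, 9.21 and 9.36 to 7.61, 7.96 and 7.90, a 2.57-fold fall (SE 0.13 on the log2 scale, adjusted p = 9.09e-05). The ligand JAG1 fell from 9.19, 8.96 and 9.07 to 8.49, 8.58 and 8.65 (log2 difference -0.50, SE 0.09, adjusted p = 0.00664). LFNG, the fringe enzyme that adds GlcNAc to fucose on the receptor, fell by 0.52 (SE 0.11), a call lost with array SD in the model, where the difference was -0.44, and the target HEY2 was called at -0.49 without being stable. The receptor NOTCH1 differed by 0.10 (SE 0.10, adjusted p = 0.49), and the target HEY1 by -0.14.

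**Figure D3:**
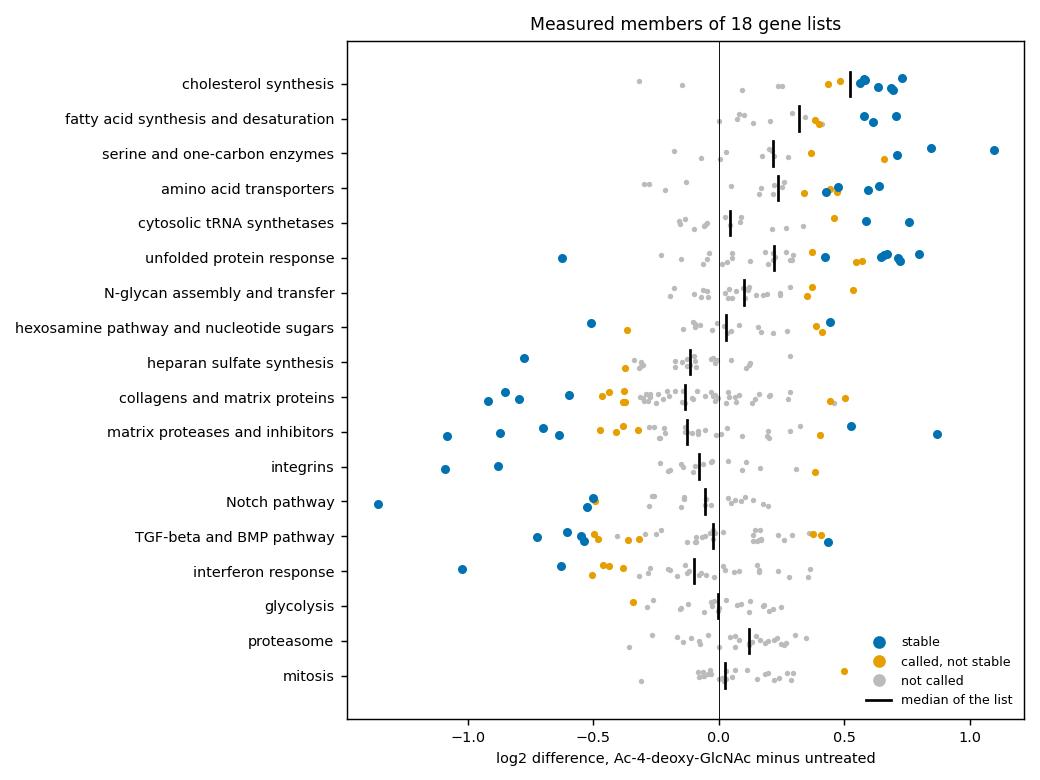
Log2 difference of Ac-4-deoxy-GlcNAc minus untreated cells (horizontal axis) for each measured gene of 18 lists (vertical axis, points spread for visibility). Blue points are stable, orange points called but not stable and grey points not called, and black bars are list medians; blue points lie right of 0 for the 7 stable genes of cholesterol synthesis and left of 0 for the 3 of the Notch pathway.

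Genes of the extracellular matrix fell more often than they rose. Of 51 measured collagens and matrix proteins, 9 were lower (against 5.68% of all probe sets), 4 of them stable, and 2 higher, with a median of -0.14; the lower count was 4 without treated replicate 3. The type I collagen chains fell together: COL1A1 had 9.12, 9.07 and 9.07 against 8.11, 8.12 and 8.26, and COL1A2 had 6.81, 7.0 and 7.12 against 6.12, 6.21 and 6.04. SPARC, a collagen-binding protein, went from 11.24, 11.25 and 11.42 to 10.48, 10.58 and 10.45. Periostin (POSTN) fell by 0.60 (SE 0.12), a call lost with array SD in the model, where the difference was -0.48. The mean level of POSTN, 4.72, lies in the dimmest quartile of probe sets, where falls were common. The groups were far apart on COL1A1 and SPARC. COL1A2 also stands on a shared probe set. COL4A3 and NID2, of the basement membrane, were called at 0.50 and 0.44 without being stable. The 9 measured fibroblast markers overlap with these lists. Of them 5 were lower (against 5.68% of all probe sets), COL1A1, COL1A2, POSTN, LUM and FAP, and 0 higher. The lower count was 3 without treated replicate 1 or 2, and PDGFRB and THY1 differed by -0.01 and 0.18. LUM and FAP were not stable: each stayed called in 2 of the 6 fits without 1 array, and the arrays of LUM overlapped. FAP, at a mean level of 4.15, also lies in the dimmest quartile.

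Among 33 matrix proteases and inhibitors, 8 were lower and 3 higher (against 5.68% and 5.37% of all probe sets), and 4 and 2 of these were stable. The interstitial collagenase MMP1 fell from 9.38, 9.20 and 9.52 to 8.0, 8.38 and 8.46, and matrilysin (MMP7) from 8.47, 8.25 and 8.35 to 7.38, 7.62 and 7.46. MMP10, a stromelysin whose gene neighbours MMP1, fell by 0.70 (SE 0.10), and the serpin SERPINB5 by 0.64 (SE 0.11). In the other direction, the tissue plasminogen activator PLAT rose from 7.95, 7.67 and 7.91 to 8.55, 8.79 and 8.80 (log2 difference 0.87, SE 0.11, adjusted p = 0.000905), and the protease ADAMTS1 rose by 0.53 (SE 0.10). The lower count was 5 without untreated replicate 3 or treated replicate 1 and 6 without each other compared array.

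Of 18 integrins, 2 were stable and lower and 1 was called higher (against 5.68% called lower and 5.37% higher over all probe sets). ITGB4, the beta subunit that anchors hemidesmosomes to laminin, fell from 10.28, 10.19 and 10.18 to 9.06, 9.10 and 9.22 (adjusted p = 5.59e-05), and ITGB6, a subunit of the receptor that activates TGF-beta, from 9.27, 9.26 and 9.41 to 8.41, 8.54 and 8.35 (adjusted p = 0.000808). The partner of ITGB4, ITGA6, differed by -0.20 and was not called. In the 5 measured genes of the hemidesmosome and its laminin, DST, which encodes plakin isoforms, was called higher (0.58) without being stable. The mucin MUC1 fell from 8.32, 8.56 and 8.53 to 7.73, 7.79 and 7.74 and was the only stable one of 16 epithelial markers; KRT19 (-0.49), KRT7 (-0.46) and CDH1 (0.45), the gene of E-cadherin, were called only, and the lower count was 1 without treated replicate 1. Among 9 mesenchymal markers limma's test called 0, with 2 at an unadjusted p under 0.05, and the 2 with the smallest p were SNAI1 (-0.39, adjusted p = 0.0761) and SNAI2 (-0.21, adjusted p = 0.159).

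In the TGF-beta and BMP pathway, 8 of 39 measured genes were lower and 3 higher (against 5.68% and 5.37% of all probe sets). PMEPA1, a target that dampens the pathway, fell from 9.64, 9.55 and 9.54 to 8.64, 8.90 and 9.02, and the inhibitory SMAD7 from 7.34, 7.37 and 7.10 to 6.57, 6.73 and 6.89. The immediate-early gene JUNB fell by 0.60 (SE 0.12), and LTBP1, which keeps TGF-beta latent in the matrix, by 0.55 (SE 0.10). SMURF2, the ligase that works with SMAD7, rose by 0.44 (SE 0.09). SMAD7 was not called with array SD in the model, and neither SMAD7 nor SMURF2 without untreated replicate 2 and treated replicate 1 together. The lower count was 5 without untreated replicate 3 and without treated replicate 1 or 3, and the higher count was 1 without untreated replicate 3 or treated replicate 3.

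**Figure D4:**
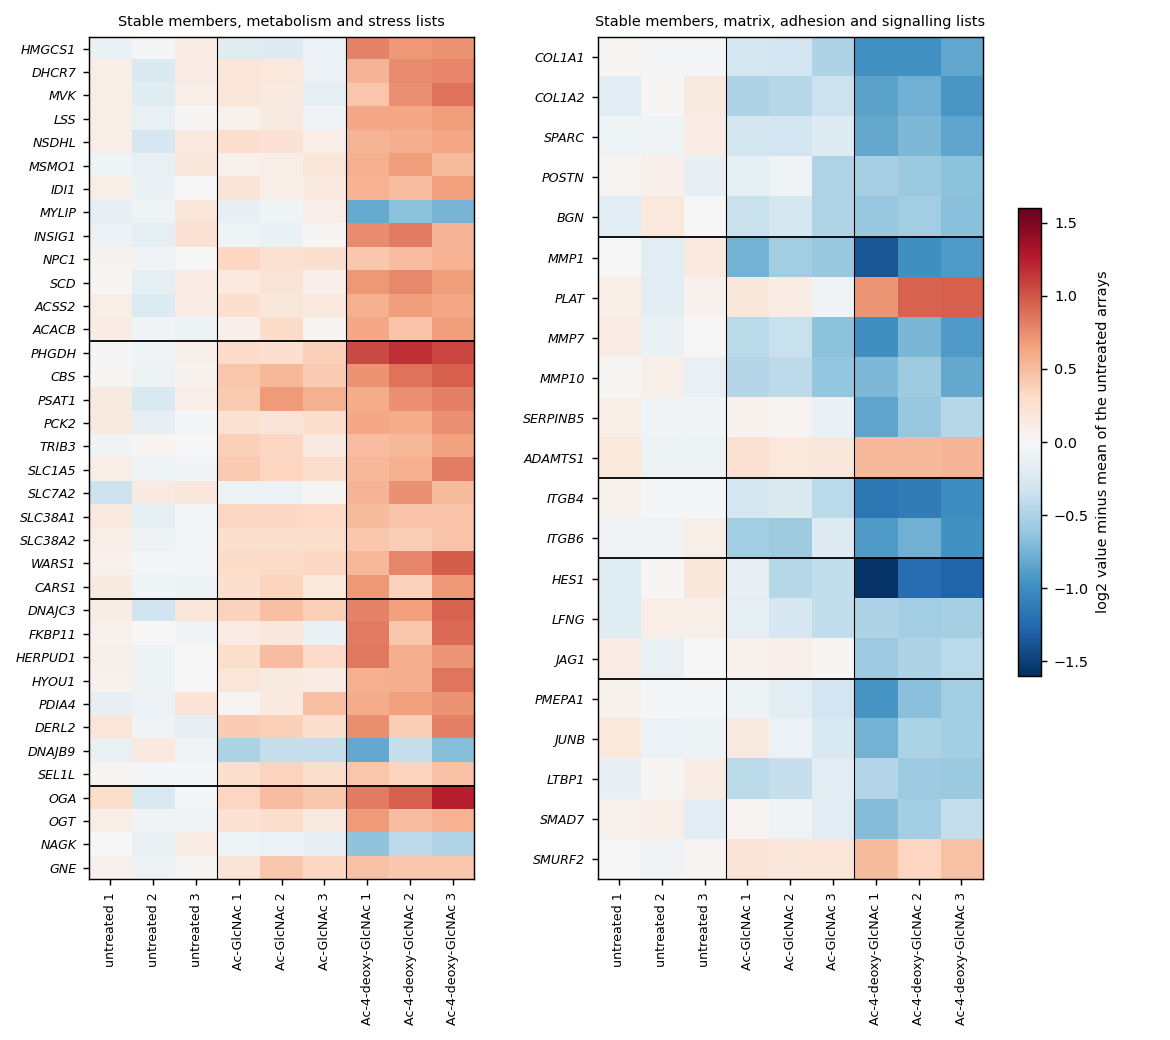
Log2 value on each of the 9 arrays (columns) minus the mean of the 3 untreated arrays, as colour from -1.6 (blue) to 1.6 (red), for stable members of the lists (rows), with horizontal lines between groups of lists. Left are sterol and fatty acid, amino acid, unfolded protein response and sugar genes, right matrix, protease, integrin, Notch and TGF-beta genes; the 3 Ac-4-deoxy-GlcNAc columns have the strongest colours, and MYLIP, DNAJB9 and NAGK are the blue rows on the left.

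FGFBP1, which carries FGF2 away from heparan sulfate, rose from 7.59, 8.11 and 7.86 to 8.56, 9.00 and 8.48 (log2 difference 0.83, SE 0.16, adjusted p = 0.00858) and was the only stable one of 29 angiogenic and heparin-binding factors and receptors, of which 3 were called higher and 0 lower (against 5.37% and 5.68% of all probe sets). The higher count was 1 without untreated replicate 3 and without treated replicate 1 or 3, and without untreated replicate 1 the counts were 4 and 4. VEGFA, the vascular growth factor, did not pass (-0.30, SE 0.11, adjusted p = 0.0847), and FGF2 was only on a probe set of several genes. The receptor ERBB2, which SKOV3 carries in amplified form, was at 12.28, 12.20 and 12.18 against 12.22, 12.18 and 12.26 (difference 0.00, SE 0.09). Of 15 ERBB receptors and ligands, ERBB3 was called at 0.42 and EREG at -0.53, neither stable. Immediate-early and ERK feedback genes had 2 of 32 lower, JUNB among them, and 0 higher. The lower count is near the share of 5.68% over all probe sets.

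IL18 rose from 9.78, 9.36 and 9.67 to 10.91, 10.05 and 10.61, with treated replicate 2 the lowest, and IL6 from 5.74, 6.11 and 6.15 to 6.73, 6.57 and 6.62 (log2 difference 0.64, SE 0.13, adjusted p = 0.00926). Both are cytokines, and in their list of 35 genes 3 were called higher and 4 lower (against 5.37% and 5.68% of all probe sets). The lower count was 1 without untreated replicate 2 and 0 without treated replicate 3. IL18 was not called with array SD in the model. Of 30 interferon response genes, 6 were lower and 0 higher (against 5.68% and 5.37% of all probe sets). IFITM1, which blocks viral entry, fell from 8.27, 8.36 and 8.08 to 6.93, 7.46 and 7.24, and IFI44L from 4.63, 4.96 and 4.76 to 4.18, 4.26 and 4.02, values in the dimmest quartile of probe sets where falls were common. The lower count was 3 without untreated replicate 2 and 2 without treated replicate 1.

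TXNRD1, a thioredoxin reductase under control of NRF2, rose from 9.04, 8.85 and 9.03 to 9.63, 9.59 and 9.80 (log2 difference 0.70, SE 0.10, adjusted p = 0.00132) and was the only stable one of 17 NRF2 genes. HMOX1, heme oxygenase 1, had 7.70, 7.11 and 7.67 against 7.59, 8.04 and 8.03; the groups overlapped (0.39, SE 0.16, adjusted p = 0.117). The NRF2 list had 3 called higher and 0 lower (against 5.37% and 5.68% of all probe sets). Its higher count was 5 without untreated replicate 1, and 1 without untreated replicate 2 and without treated replicate 1 or 3. TXNIP, which responds to glucose, was 0.47 lower (SE 0.10, adjusted p = 0.0142) but not called without treated replicate 3 (adjusted p = 0.0732; 0.0183 to 0.0429 without each other compared array). The lysosomal fucosidase FUCA1 fell by 0.57 (SE 0.12), the only stable one of 33 lysosome genes. Of these, 3 were lower and 0 higher (against 5.68% and 5.37% of all probe sets). The lower count was 6 without untreated replicate 1 and 1 without treated replicate 1 or 3.

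Several lists held few or no calls. In glycolysis, 1 of 22 measured genes was called, the glucose carrier SLC2A1 at -0.34, and in the Wnt pathway 2 of 32 were higher and 2 lower. Of 16 targets of YAP and TEAD 2 were lower, NT5E (-0.56) and CCN2 (-0.35), and none was stable. DNA replication and mitosis had 1 call each, POLE2 (0.41) of 30 and KIF11 (0.50) of 28, and for the proteasome limma's test called 0 of 27, with 6 at an unadjusted p under 0.05. These shares lie near or below the 11.1% called over all probe sets.

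The same treated arrays were set against those of Ac-GlcNAc, given at the same dose, which tests whether compounds that differ at carbon 4 gave different responses. Of the 14413 probe sets 341 (2.37%) passed the same threshold, and 80 (0.555%) were stable in that contrast. Leaving out treated replicate 1 or 3 gave 107 or 156 calls, and leaving out an Ac-GlcNAc array gave 112, 131 or 129 (replicate 1, 2 or 3). Of the 15 largest falls against untreated cells, 11 were also lower than with Ac-GlcNAc, and of the 15 largest rises 12 were also higher; 7 and 6 of these were stable. Both contrasts use the same treated arrays, so these counts are no independent repeat.

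ENPP2 and HMOX1 had the largest differences between the compounds over the 14215 genes; they had been chosen with that result known, so their levels are given as a description. ENPP2, the secreted enzyme autotaxin that makes lysophosphatidic acid, was at 6.56, 6.35 and 6.37 untreated, at 5.38, 5.39 and 5.69 with Ac-4-deoxy-GlcNAc and at 7.77, 7.66 and 7.68 with Ac-GlcNAc. The groups stood apart on either side of the untreated cells. HMOX1 was at 9.75, 9.59 and 9.54 with Ac-GlcNAc, above every array of the other groups.

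AMTN and NMUR2 lay between the untreated and Ac-4-deoxy-GlcNAc groups in cells given Ac-GlcNAc, at 10.48, 10.42 and 10.40 and at 8.74, 8.60 and 8.86. Ac-4-deoxy-GlcNAc minus Ac-GlcNAc was -1.42 and -1.01 (adjusted p = 6.41e-05 and 0.000204). C2orf74-DT, by contrast, stood at 7.14, 7.22 and 7.30 with Ac-GlcNAc, within the range of the untreated arrays apart from replicate 1, and differed between the compounds by -1.21 (adjusted p = 5.99e-05). LRRN4 and TENM1 were likewise near their untreated values with Ac-GlcNAc and differed by 1.12 and 0.96 (adjusted p = 0.000241 and 0.00102). HES1 and JAG1 of the Notch pathway were lower by 1.04 and 0.56 than with Ac-GlcNAc (adjusted p = 0.00116 and 0.00798), and ITGB4 by 0.78 (adjusted p = 0.00102).

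In sterol synthesis the compounds differed on HMGCS1 by 0.89 (adjusted p = 0.00033), on LSS by 0.58 (adjusted p = 0.00668), on INSIG1 by 0.76 and on MYLIP by -0.70, all stable in that contrast. DHCR7 and MVK also differed, by 0.60 and 0.62, but each stayed called in only 1 of the 6 fits without 1 array. FGFBP1 and PLAT were higher by 1.03 and 0.79 with Ac-4-deoxy-GlcNAc, and PHGDH by 0.78 (adjusted p = 0.00609, 0.00329 and 0.00076).

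Other genes that rose or fell against untreated cells did not pass the test between the compounds. NSDHL of sterol synthesis differed by 0.38 (95% interval 0.13 to 0.62, adjusted p = 0.121) and the sterol carrier NPC1 by 0.21 (0.02 to 0.40, adjusted p = 0.293). PSAT1 differed by 0.15 (95% interval -0.11 to 0.41), TXNRD1 by 0.15 (-0.06 to 0.36), SLC38A2 by 0.16 (-0.03 to 0.35) and GNE by 0.12 (-0.08 to 0.32). For CHORDC1 the interval was wide, from -0.12 to 0.98, and for HNRNPM it ran from -0.76 to 0.10. DNAJC3, HERPUD1 and OGT had intervals above 0, of 0.11 to 0.67, 0.13 to 0.58 and 0.16 to 0.57, but their adjusted p values of 0.162, 0.0965 and 0.067 did not pass over all probe sets. MMP1 and MMP7 likewise had intervals below 0, -0.72 to -0.16 and -0.62 to -0.15, with adjusted p values of 0.0995 and 0.0869. These intervals hold for each gene alone and leave room for differences in either direction or of moderate size. Some of these genes were also called by limma's test with Ac-GlcNAc against untreated cells. CHORDC1 differed there by 1.34 (adjusted p = 0.0456), TXNRD1 by 0.56 (adjusted p = 0.0336) and MMP1 by -0.64 (adjusted p = 0.0494). The other genes of this paragraph were not called in that comparison. It called 4 of the 15 largest falls and 1 of the 15 largest rises.

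**Figure D5:**
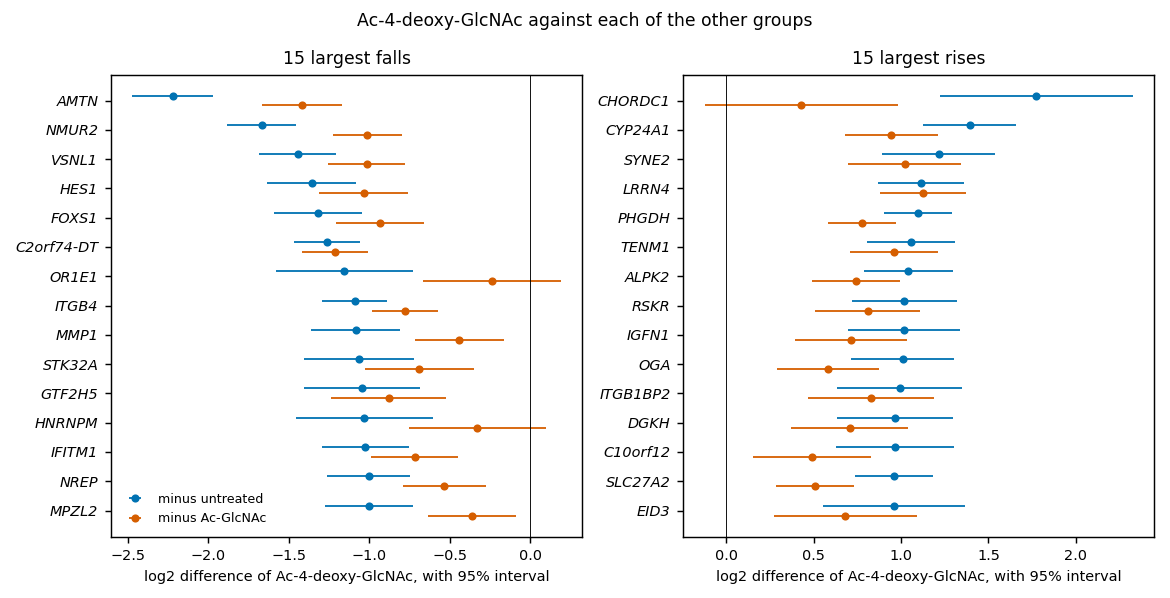
Log2 difference of Ac-4-deoxy-GlcNAc minus untreated cells (blue) and minus Ac-GlcNAc (orange) on the horizontal axis, with 95% intervals of each gene alone, for the 15 largest falls and the 15 largest rises (vertical axis). The orange interval crosses 0 for OR1E1, HNRNPM and CHORDC1, and lies on the same side as the blue one for the other 27 genes.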

How the data were processed

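Transcripts were measured on 1-colour arrays, 3 for each of 3 groups. Per the submitters' processing notes, the deposited log2 values were made with RMA in Partek; hg18 is the build named there, and versions are not given in the sources used here. RMA is meant to make the distributions of arrays alike, so it can hide a shift shared by most genes. The deposited values were not fully alike, with SDs of 1.92 to 2.18 and medians of 6.58 to 6.65.

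The log2 values were used as deposited. Probe sets were named through the platform annotation, with symbols updated by gene number in RefSeq (GRCh38.p14), which was also used for overlapping neighbours and promoter letters; probe sets of several genes were left out of counts. A gene with several probe sets is given by its brightest, judged on all 9 arrays. All 9 arrays were fitted in 1 model of group means by limma (version 3.58.1, R 4.3.3; lmFit, then eBayes; two-sided tests). P-values were adjusted by Benjamini-Hochberg across the 17859 probe sets, and 0.05 was the threshold. Precision is limited by how few arrays there are. The model was tested on simulated data. Those data had independent noise on each value and no shift shared across an array, so they do not cover the array shifts described above.

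Named genes were the 15 largest stable rises and falls, up to 5 stable members per list (otherwise the 2 of smallest p) and a fixed list of genes tied to sugars, stress, sterols, Notch and growth factors; any other gene given with a value was picked once its values were known. The members and the lists were chosen with earlier results of these data known. Alternatives covered scaling, level filters, moderation, array weights, the replicate block, array SD as a term and arrays left out.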

Additional observations from a re-analysis of the deposited data

How the results depend on the processing

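The number of probe sets called against untreated cells, 1593, ranged from 484 to 2501 when 1 array was left out. It was 648 with the 6 compared arrays alone, 469 with array SD in the model and 568 with both untreated replicate 2 and treated replicate 1 left out. Against Ac-GlcNAc the count of 341 ranged from 107 to 377 without 1 array and was 952 with array weights. The cause of these moves beyond the lower number of arrays was not tested. Of the 85 stable genes named by the rule, 13 were not called with array SD in the model and 5 without both arrays. Over 128 named genes and 17 settings, 1978 of 2151 values kept their direction and side of the threshold, 130 lost the call, 24 gained it and 19 changed sign. The changes of sign were all in genes not called, and their cause was not tested. XBP1 was -0.0167 with cyclic loess and -0.0156 with quantile normalization, NMU -0.0122 and -0.0153, and ERBB2 -0.0559 and -0.0352. ERBB2 was also -0.00256 with array weights, -0.0193 with array SD in the model and -0.0114 without both arrays. Without 1 array XBP1 ranged from -0.00116 to 0.136, NMU from -0.0177 to 0.0845, ERBB2 from -0.0197 to 0.0324, GFPT1 from -0.0628 to 0.0429, NDST1 from -0.0570 to 0.0112 and SDC4 from -0.104 to 0.0270.

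The labels give the groups the same replicate numbers. Deviations of same-numbered treated and untreated arrays correlated at -0.24, 0.05 and 0.14, and those of arrays with unlike numbers from -0.40 to 0.41. With 3 arrays per group, these values cannot tell whether the numbers pair the arrays. With the replicate block 1764 probe sets were called against untreated cells and 332 against Ac-GlcNAc. Array signal over background was not analysed here, so values in the dimmest quartile of probe sets have the least certain meaning.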

Other observations

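Some stable genes that moved the same way lie next to each other in the RefSeq order of the measured genes, so unmeasured genes may lie between them. This was looked for after the values were seen and has no test. There were 13 such pairs. GUCY1A1 and GUCY1B1, the subunits of the nitric oxide receptor guanylate cyclase, were 1.44-fold and 1.77-fold lower. TM4SF1 and TM4SF4, tetraspanin-like membrane proteins, were 1.40-fold and 1.79-fold lower. TDO2, which opens the ring of tryptophan, and CTSO, a cathepsin, were 1.84-fold and 1.68-fold lower. RASGRP3, an activator of Ras proteins, was 1.66-fold lower beside LTBP1, and ATOX1, a copper chaperone, 1.51-fold lower beside SPARC. The mean level of RASGRP3, 4.70, lies in the dimmest quartile of probe sets, where falls were common. MALT1, a paracaspase, was 1.46-fold higher beside ALPK2.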
